A study of Homo sapiens with 6 samples.

Results

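The genes described here make cholesterol and fatty acids or control that supply, and most are targets of the sterol regulatory element binding proteins, the SREBPs. They were listed by symbol, with a choosing rule that uses no measured value but with earlier results of these data known, and 29 of the 31 listed genes had a probe set that names them alone, out of 18417 genes measured. The listed genes without one were FDFT1 and HSD17B7, and they are not analysed here. Of the 29, 16 belong to the sterol branch, 9 to the fatty acid branch, and 4 are regulators or carriers: SREBF1, SREBF2, INSIG1 and STARD4.

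All 6 samples were A549 cells, a human lung adenocarcinoma line, kept as stable cells, starved of serum overnight and then exposed for 48 h to VP-16. VP-16 is etoposide, which traps topoisomerase II on broken DNA. The 3 control arrays came from stable cells with the control genotype label, and the 3 others from stable cells labelled H2AX knockdown, called P1. H2AX is a histone H2A variant that receives a phosphate mark beside DNA breaks. How the knockdown was made and how many stable lines stand behind each group are not given in the labels, so a group may be 1 line. Replicates are described as independent experiments, and p-values measure only the spread between these arrays. No sample without the drug was analysed here.

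SREBPs are transcription factors held in the membrane of the endoplasmic reticulum. When membrane cholesterol is low they are carried to the Golgi, cut, and released to the nucleus, where they bind sterol regulatory elements beside NF-Y and Sp1 sites. SREBP-2, from SREBF2, acts mainly on cholesterol genes, and SREBP-1, from SREBF1, mainly on fatty acid genes. INSIG1 holds the precursors back when sterols are plentiful and is itself a target, so its transcript is widely read as a gauge of SREBP activity. Lung epithelial cells use both branches, since surfactant is rich in phospholipid and also holds cholesterol.

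Promoters of the members were read for the letters of sterol regulatory elements and of NF-Y and Sp1 sites. RefSeq promoters (build GRCh38.p14, 250 bases before each annotated start) were found for 27 of the 31 listed genes, and those of ACAT2, FDFT1, SQLE and FASN were not matched. A core of the sterol regulatory element, TCACNCCA, was searched on both strands with the E-box form TCACNTGA that SREBPs can also bind, the NF-Y box CCAAT and the GC box GGGCGG. The 3 promoters with TCACNCCA, those of SREBF2, MSMO1 and MVK, are shown because they carry the element for which the family is named, and that of INSIG1, chosen after its values were seen, because it holds the E-box form and its gene is among the members with the largest differences. Capitals mark TCACNCCA, TCACNTGA and CCAAT on either strand, and no 2 such matches overlap in these promoters.
SREBF2, chr22:41832855-41833104, plus strand: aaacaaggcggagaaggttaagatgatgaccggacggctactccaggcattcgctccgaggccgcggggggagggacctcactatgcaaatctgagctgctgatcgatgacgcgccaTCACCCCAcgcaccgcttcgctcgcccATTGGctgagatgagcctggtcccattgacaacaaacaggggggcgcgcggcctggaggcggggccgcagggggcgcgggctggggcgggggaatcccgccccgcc
MSMO1, chr4:165327419-165327668, plus strand: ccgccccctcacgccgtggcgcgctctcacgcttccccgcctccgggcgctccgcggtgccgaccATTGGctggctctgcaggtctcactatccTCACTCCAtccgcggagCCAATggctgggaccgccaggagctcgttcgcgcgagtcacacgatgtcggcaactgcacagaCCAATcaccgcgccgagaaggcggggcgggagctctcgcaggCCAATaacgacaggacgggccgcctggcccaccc
MVK, chr12:109573544-109573793, plus strand: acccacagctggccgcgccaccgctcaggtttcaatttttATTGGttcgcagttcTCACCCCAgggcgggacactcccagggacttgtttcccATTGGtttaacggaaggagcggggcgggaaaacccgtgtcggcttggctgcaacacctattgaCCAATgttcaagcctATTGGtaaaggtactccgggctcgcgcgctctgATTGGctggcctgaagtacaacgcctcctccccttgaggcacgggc
INSIG1, chr7:155297628-155297877, plus strand: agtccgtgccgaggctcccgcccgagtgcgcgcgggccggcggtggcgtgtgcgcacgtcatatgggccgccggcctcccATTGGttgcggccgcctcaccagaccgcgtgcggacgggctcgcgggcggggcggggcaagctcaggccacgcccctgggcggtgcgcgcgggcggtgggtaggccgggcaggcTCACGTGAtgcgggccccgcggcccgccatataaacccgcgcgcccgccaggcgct

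The element TCACNCCA began 133 bases before the start in SREBF2, 156 in MSMO1 and 195 in MVK. An NF-Y box lay close to each: at 106 bases before the start in SREBF2, at 139 in MSMO1 and at 210 in MVK. In INSIG1 the form TCACGTGA began 56 bases before the start and reads the same on both strands. Of the 27 genes with a promoter, 3 held TCACNCCA (11.1%), against 3.92% of all 27305 genes in the promoter table. The E-box form was held by 2 genes, EBP and INSIG1 (7.41%, against 3.97% of all genes). NF-Y boxes were present in 20 of 27 (74.1%, against 37.0%) and GC boxes in 26 of 27 (96.3%, against 46.2%), and the table also lists non-coding genes. None of the 8 fatty acid genes with a promoter held TCACNCCA or TCACNTGA, 4 held CCAAT, and all 8 held GGGCGG. A match is a description of the letters in this window and shows no binding, and an absent match only that these letters are not there.

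The arrays were checked before the members were read. H2AX, the gene named in the label, read 5.11, 5.27 and 5.26 in control replicates 1, 2 and 3 and 5.28, 5.17 and 5.49 in knockdown-labelled replicates 1, 2 and 3. The groups overlapped, and the difference was 0.10 (95% interval −0.25 to 0.45; limma adjusted p = 0.823). A 2-sided exact permutation test gave p = 0.4, and 0.1 is the smallest p that 3 against 3 arrays allow. This signal does not show the labelled knockdown, so the group is called knockdown-labelled, and each direction rests on the label alone. All values are log2 signals, and a difference is the knockdown-labelled mean minus the control mean. Bright genes read lower in the knockdown-labelled arrays: in 5 equal bins of mean signal the median difference of all genes went from 0.15 in the dimmest to −0.25 in the brightest. Knockdown-labelled replicate 1 stood apart, with a median of −0.45 in the brightest bin against −0.15 and −0.13 in replicates 2 and 3, and control replicate 1 lay at the other end, at 0.14. The keratins KRT8, KRT18 and KRT7 and the A549 genes ALDH1A1, ALDH3A1, AKR1B10, AKR1C1 and GPX2 were bright (6.18 to 10.0), CDH1 read 5.23 to 5.71 and EPCAM 2.28 to 2.72, while the alveolar markers SFTPB, SFTPC and NKX2-1 read 2.21 to 3.36. All 5 A549 genes had a mean below the controls (median −0.26), and ALDH1A1 (−0.61) and AKR1C1 (−0.58) did so with no overlap and an unadjusted p under 0.05. Of 7 fibroblast markers all 7 were above 0 (0.04 to 0.47, summed signal 21.7 to 23.5 in controls and 23.5 to 26.4 in knockdown-labelled arrays), and the part of either list in the results below was not tested. The 6 blood and immune markers summed to 23.1 to 24.0 in controls and 22.4 to 23.4 in knockdown-labelled arrays, with CD68 at −0.46 without overlap, LYZ at −0.40 and the 4 others at 0.10 to 0.12. The 3 adipocyte markers summed to 9.40 to 10.8 and 9.66 to 10.5.

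Most of the members had a lower mean in the knockdown-labelled arrays, and none passed the threshold. Of the 29, 26 had a negative difference (23 after quantile normalization), and the median was −0.24, while 51.5% of all genes were negative and their median was −0.01. Among all genes of the 2 brighter bins, where 22 of the members lie, 66.1% and 85.3% were negative. None of the 29 passed an adjusted p of 0.05 in limma, where 0.0326% of all genes did (0.0271% lower and 0.00543% higher). Without adjustment, 6 members (20.7%) had a p under 0.05 and a lower mean, and 0 a higher one, where 8.38% of all genes were lower and 3.78% higher by that rule. These 6 were IDI1, CYP51A1 and DHCR7 of the sterol branch, INSIG1 and SREBF2 of the regulators, and FADS2 of the fatty acid branch. The groups did not overlap for 6 members that were lower, or 20.7%, against 9.82% of all genes, and for 1 that was higher, STARD4, against 7.17%. In the 2 brighter bins 13.3% and 23.2% of all genes were lower without overlap. A difference of −0.5 or lower was measured for 6 members, SCD with IDI1, DHCR7, INSIG1, CYP51A1 and SREBF2, and for 4.54% of all genes. Without knockdown-labelled replicate 1 it was 2 members, IDI1 and CYP51A1 (2.84% of all genes), and after quantile normalization 3, IDI1, INSIG1 and DHCR7 (2.54%). Without control replicate 1 the same 3 as after quantile normalization were left (2.49%), and without control replicate 2 or knockdown-labelled replicate 3 it was 9 (8.48% and 8.24%). In bulk RNA, fewer cells with a transcript and less transcript per cell cannot be told apart.

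Members were mostly bright genes, so they were also set beside genes of like signal. The part of this signal-dependent shift in the members' values was not tested. Of the 29, 11 were in the brightest bin and 11 in the next, and 7 in the 2 bins below those. In the brightest bin 10 of 11 members were below 0, against 85.3% of all genes there, and in the next 11 of 11, against 66.1%. In the brightest bin 2 of 11 members were lower at an unadjusted p under 0.05 (18.2%), against 22.9% of all genes there, and the members' median was −0.31 against −0.25. In the next bin 4 of 11 were lower (36.4%, against 11.3%), with a median of −0.30 against −0.10. These 4 were IDI1, DHCR7, INSIG1 and SREBF2. Set against the median of its own bin, the difference was below that median for 21 of the 29 members.

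**Figure D1:**
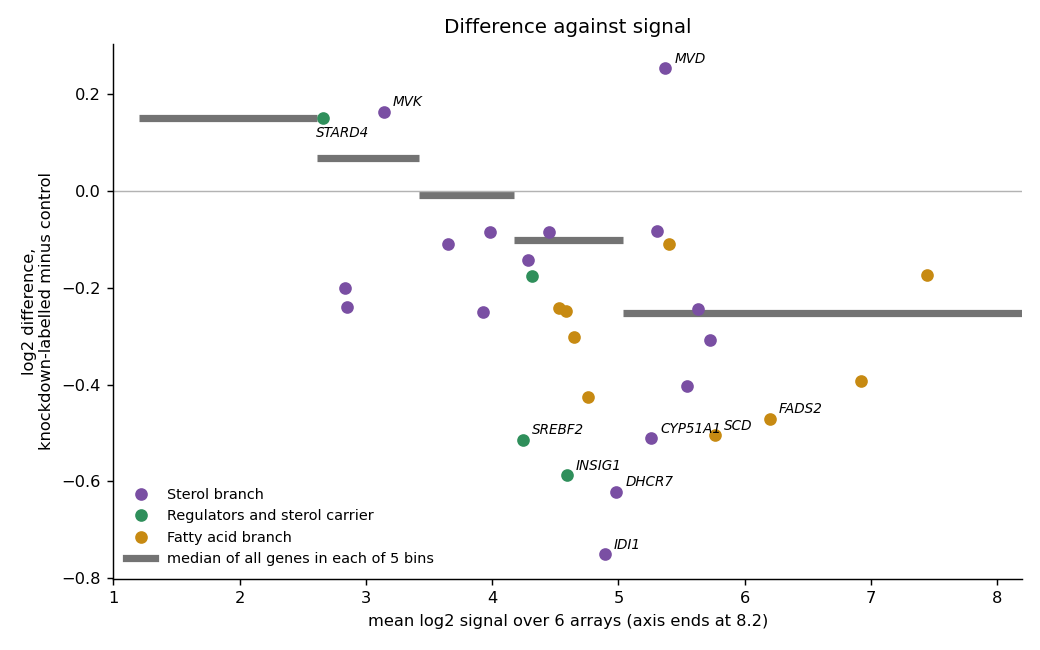
Log2 difference (knockdown-labelled minus control) of 29 members against their mean log2 signal over 6 arrays, coloured by branch, with grey bars at the median difference of all genes in each of 5 equal bins of signal. IDI1, DHCR7, INSIG1 and SREBF2 lie farthest below the bar of their bin, and MVD lies above 0 in the brightest bin, where the bar is at −0.25.

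Sterol branch genes differed unevenly along the pathway, and their signal was uneven too. Of 16 measured genes 14 were below 0 and 2 above, where 51.5% of all genes were below 0. The median was −0.22, and 11 of the 16 were below the median of their own bin. At an unadjusted p under 0.05, 3 genes were lower and 0 higher, where 8.38% of all genes were lower. From acetyl-CoA through the step of MVD the median was −0.14 (median signal 3.93), and from lanosterol to cholesterol −0.24 (5.26). With bin medians subtracted these were −0.04 and −0.06. The first steps, from acetyl-CoA through that of MVD, held no gene at an unadjusted p under 0.05. ACAT2, the cytosolic thiolase, had a difference of −0.24, HMGCS1, the synthase of HMG-CoA, one of −0.25, and PMVK, which adds the second phosphate, one of −0.14. MVK, the mevalonate kinase, and MVD, the decarboxylase that ends this stretch, were the only sterol genes above 0, at 0.16 and 0.25. MVK rests on scattered dim values, with 3.79, 3.36 and 2.53 in knockdown-labelled replicates 1, 2 and 3 against 2.89 to 3.16 in the controls, and it turned to −0.12 without knockdown-labelled replicate 1. MVD read 5.61, 5.50 and 5.39 in the knockdown-labelled arrays and 5.10, 5.40 and 5.23 in the controls, so that only the last knockdown-labelled array reached into the control range. Its difference stayed above 0 in all 14 alternatives and was 0.41 after quantile normalization, where it had an unadjusted p under 0.05.

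IDI1, the isomerase that makes the activated building block for all isoprenoids, had the largest difference of the members. It read 5.57, 5.06 and 5.18 in control replicates 1, 2 and 3 and 4.08, 4.64 and 4.83 in knockdown-labelled replicates 1, 2 and 3. All 3 knockdown-labelled arrays lay below all controls, with replicate 1 lowest. The difference was −0.75 ± 0.21 (SE), a signal of 59.4% of control (limma adjusted p = 0.279), and −0.53 without knockdown-labelled replicate 1. FDPS, the synthase of farnesyl diphosphate, was at −0.09, and probe sets that it shares with other genes were not used.

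Between farnesyl diphosphate and lanosterol 2 genes were measured. SQLE, the epoxidase of squalene and a slow step of the pathway, was at −0.40, and LSS, which closes the rings to lanosterol, at −0.11. SQLE read 5.16 and 5.21 in knockdown-labelled replicates 1 and 2, below all controls (5.53 to 5.99), and 5.65 in replicate 3, within them.

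From lanosterol to cholesterol all 7 measured genes were below 0, of which TM7SF2 turned to 0.07 after quantile normalization. Of the 7, 4 lie in the brightest bin and 2 in the next, where 85.3% and 66.1% of all genes were below 0. The difference was below the median of its own bin for 4 of the 7. CYP51A1 and DHCR7 had the largest differences of these genes. CYP51A1, the demethylase of lanosterol, was the most even of them: it read 5.62, 5.46 and 5.46 in the controls and 5.03, 4.97 and 5.01 in the knockdown-labelled arrays, with no overlap. Its difference was −0.51 ± 0.15 (SE), or 70.2% of control (limma adjusted p = 0.286), and −0.53 without knockdown-labelled replicate 1. A second, dimmer probe set of CYP51A1 had −0.19 ± 0.17 (SE), and the mean of both had −0.35. DHCR7, the reductase that makes cholesterol from its last precursor, had a difference of −0.62 ± 0.28 (SE; limma adjusted p = 0.403) that rested on 1 array. It read 5.37, 5.06 and 5.45 in the controls and 3.85, 5.07 and 5.09 in the knockdown-labelled arrays, so that replicates 2 and 3 overlapped the controls, and without replicate 1 the difference was −0.21. The others were MSMO1, a methyl oxidase (−0.31), NSDHL, a decarboxylating dehydrogenase (−0.24), SC5D, a desaturase (−0.20), EBP, the sterol isomerase (−0.08), and TM7SF2, a sterol reductase (−0.08). The groups overlapped for each of these. NSDHL was at −0.06 without knockdown-labelled replicate 1, and after quantile normalization NSDHL was at −0.05 and MSMO1 at −0.12.

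**Figure D2:**
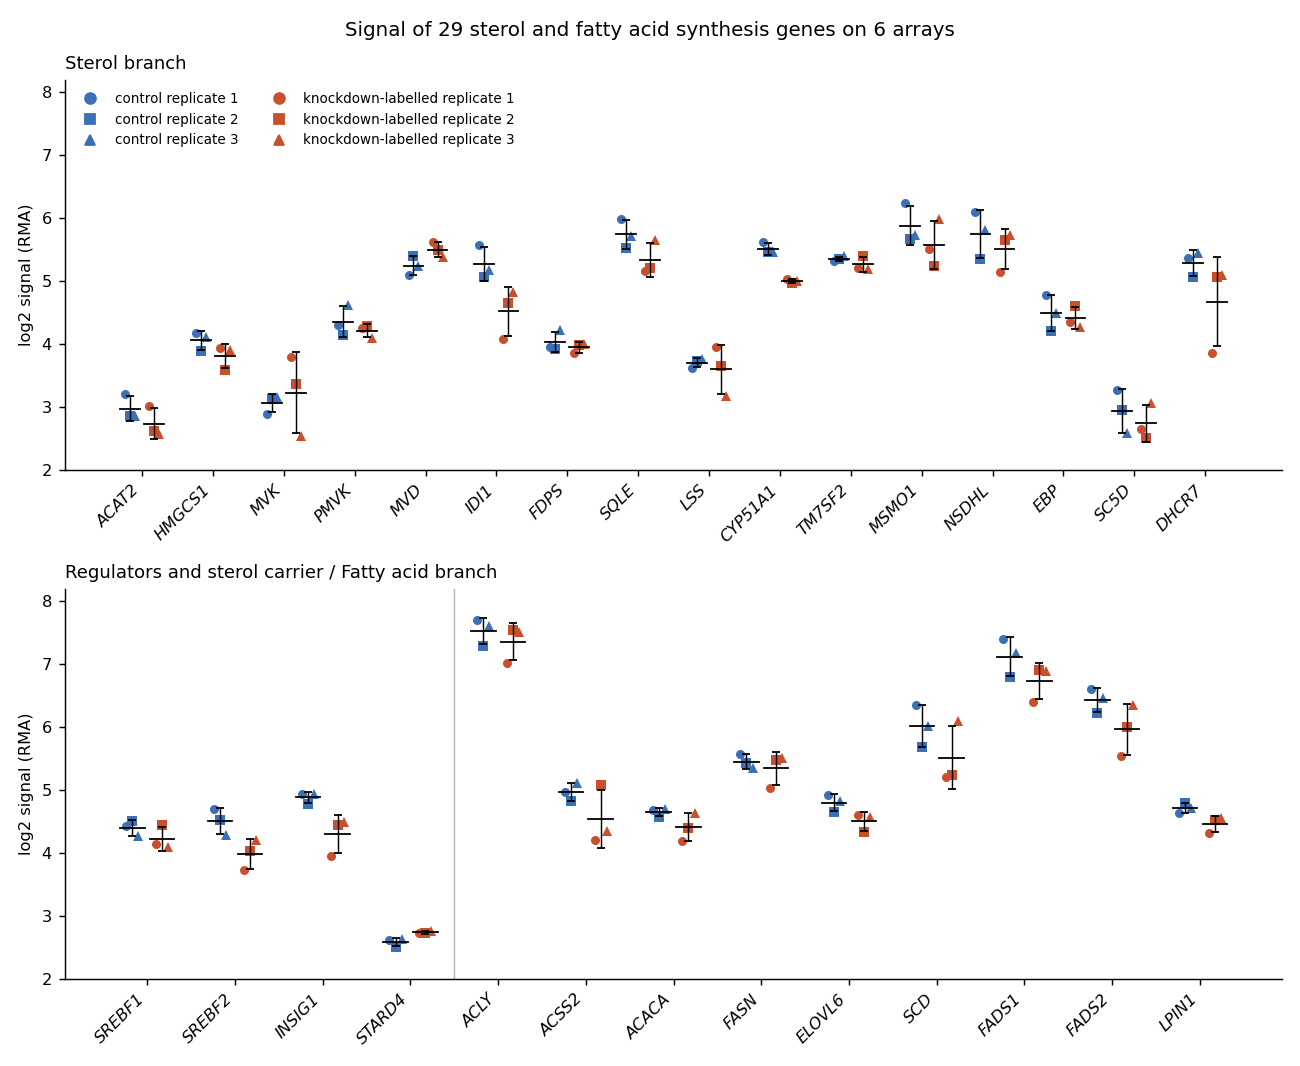
Log2 signal of each of 29 members on each of 6 arrays, sterol branch above and regulators with the fatty acid branch below, blue for control and orange for knockdown-labelled arrays; bars give the mean and SD of 3 arrays. IDI1, CYP51A1, SREBF2, INSIG1, ELOVL6 and LPIN1 are lower with no overlap between the groups, and STARD4 is higher with no overlap. DHCR7 has 1 knockdown-labelled array at 3.85, far below the 5 others.

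Among the regulators INSIG1 and SREBF2 had lower means with no overlap, and SREBF1 did not separate. INSIG1, the sterol-sensing anchor of SREBPs, read 4.94, 4.78 and 4.93 in the controls and 3.95, 4.44 and 4.50 in knockdown-labelled replicates 1, 2 and 3. Its difference was −0.59 ± 0.18 (SE), or 66.5% of control (limma adjusted p = 0.289), and −0.42 without knockdown-labelled replicate 1. SREBF2, the gene of SREBP-2, read 4.70, 4.52 and 4.29 in the controls and 3.73, 4.03 and 4.21 in the knockdown-labelled arrays. Here the lowest control and the highest knockdown-labelled array lay close, and the difference was −0.51 ± 0.18 (SE; limma adjusted p = 0.326). SREBF1, the gene of both SREBP-1 forms, was at −0.17 with overlapping groups, and its probe set does not tell the forms apart. STARD4, a soluble carrier of sterol between membranes, was dim (2.50 to 2.75) and higher in all 3 knockdown-labelled arrays, by 0.15, where all genes in its bin had a median of 0.07; the difference was 0.02 after quantile normalization. Without knockdown-labelled replicate 1, 1 of the 4 genes, INSIG1, kept an unadjusted p under 0.05, and the same held without control replicate 1.

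All 9 fatty acid genes had a mean below that of the controls, with a median of −0.30, though after quantile normalization FASN turned to 0.04 and ACLY to 0.05, and the median was −0.18 (−0.17 after cyclic loess). All 9 lie in the 2 brighter bins, where 66.1% and 85.3% of all genes were below 0. At an unadjusted p under 0.05, 1 of 9 was lower, FADS2 (11.1%, against 8.38% of all genes), and 0 passed the adjusted threshold. Of all genes in these 2 bins, 11.3% and 22.9% were lower at an unadjusted p under 0.05. ACLY, which splits citrate into cytosolic acetyl-CoA, was at −0.17 and ACSS2, which makes acetyl-CoA from acetate, at −0.43. ACACA, the carboxylase that commits carbon to fatty acids, was at −0.24, and FASN, the synthase, at −0.11. The groups overlapped for all 4.

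The 4 genes that lengthen or desaturate fatty acids ran from −0.50 to −0.30, and from −0.31 to −0.15 after quantile normalization (SCD −0.31, FADS1 −0.15). SCD, the desaturase that makes oleate, read 6.36, 5.68 and 6.02 in the controls and 5.20, 5.24 and 6.10 in knockdown-labelled replicates 1, 2 and 3. Replicates 1 and 2 were below all controls and replicate 3 was among them, for a difference of −0.50 ± 0.24 (SE; limma adjusted p = 0.427). FADS2, the delta-6 desaturase of polyunsaturated fatty acids, read 6.61, 6.22 and 6.47 in the controls and 5.53, 6.00 and 6.36 in the knockdown-labelled arrays. Again replicate 3 lay among the controls, and the difference was −0.47 ± 0.21 (SE; limma adjusted p = 0.398), or −0.26 both without knockdown-labelled replicate 1 and after quantile normalization. FADS1, the delta-5 desaturase beside it, was at −0.39 and overlapped. ELOVL6, the elongase of palmitate, was at −0.30 and LPIN1, a phosphatidate phosphatase of glyceride synthesis, at −0.25, and for both all 3 knockdown-labelled arrays lay below all controls.

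**Figure D3:**
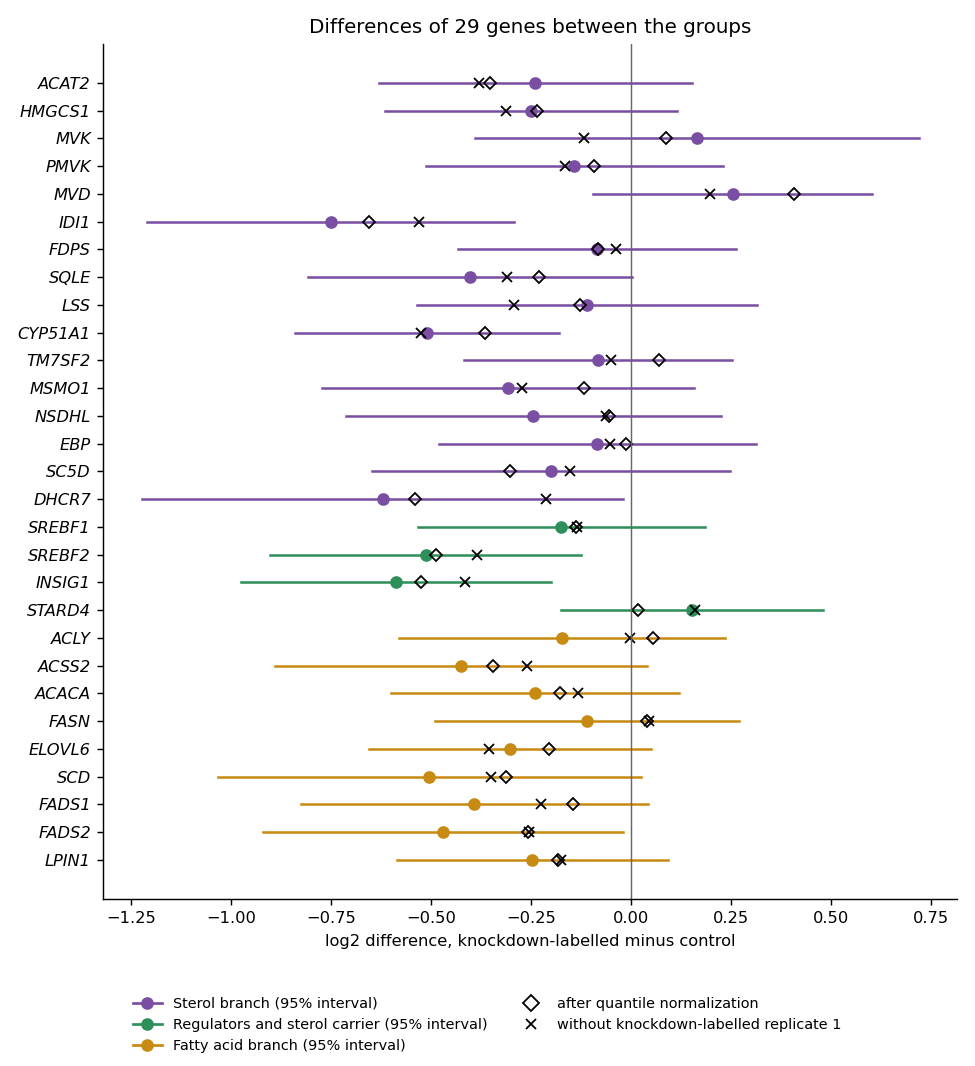
Log2 difference (knockdown-labelled minus control) of each member with its 95% interval from limma, coloured by branch; open diamonds give the difference after quantile normalization and crosses that without knockdown-labelled replicate 1. The intervals of IDI1, CYP51A1, DHCR7, SREBF2, INSIG1 and FADS2 lie below 0, and without replicate 1 DHCR7 moves from −0.62 to −0.21.

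Across arrays the members did not move as a block. Knockdown-labelled replicate 1 was the lowest of the 6 arrays for 15 of the 29 members, and for 8 of the 9 fatty acid genes, but for 5 of the 16 sterol genes. Control replicate 1 was the highest for 17 members, while for all genes these 2 arrays were lowest and highest in 28.4% and 25.9%. Against the control mean, the median over the fatty acid genes was −0.51, −0.22 and −0.08 in knockdown-labelled replicates 1, 2 and 3, whereas that over the sterol genes was −0.16, −0.16 and −0.18. In controls 1, 2 and 3 the same medians were 0.13, −0.15 and 0.03 for the fatty acid genes and 0.11, −0.15 and 0.02 for the sterol genes. The fatty acid median thus had 1 knockdown-labelled array above a control, and the sterol median of the knockdown-labelled arrays lay close below that of control replicate 2. All 9 fatty acid genes lie in the 2 brighter bins, while of the 16 sterol genes 6 lie in the brightest and 4 in the next. Over all genes of the brightest bin the same medians were −0.45, −0.15 and −0.13 in knockdown-labelled replicates 1, 2 and 3. Whether the branches differ, and the part of signal in these values, was not tested.

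**Figure D4:**
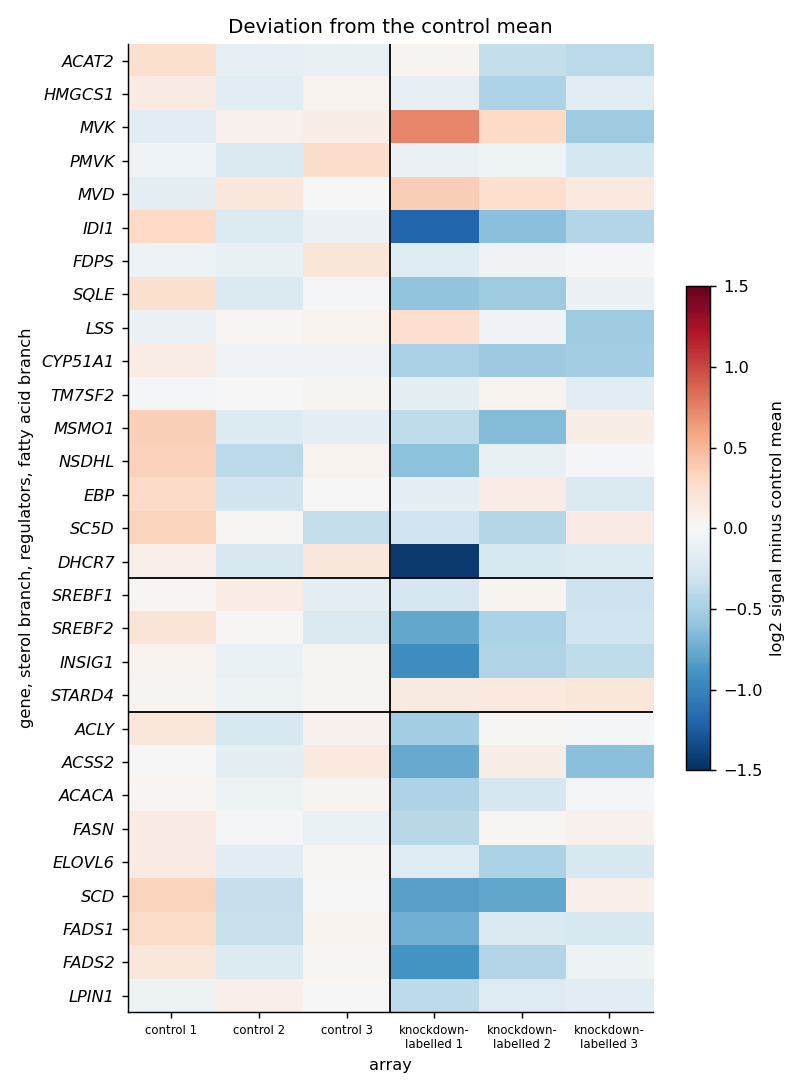
Log2 signal of each member on each array minus the mean of its 3 controls, with lines between sterol branch, regulators and fatty acid branch. Knockdown-labelled replicate 1 is lowest for 15 of 29 members, while ACAT2, MVK, MVD, LSS and STARD4 are above the control mean in it. CYP51A1 is nearly even over the 3 knockdown-labelled arrays.

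Other genes of the pathway, from a list drawn up by function, were read in the same fit. Of 30 measured of 34 listed, 23 were below 0 (76.7%, against 51.5% of all genes), with a median of −0.25. A lower mean with an unadjusted p under 0.05 was found for 8 (26.7%, against 8.38% of all genes). By that rule 0 were higher, and 0 passed the adjusted threshold in limma. Of the 30, 12 lie in the brightest bin and 5 in the next. There 85.3% and 66.1% of all genes were below 0, and 22.9% and 11.3% were lower at an unadjusted p under 0.05. The difference was below the median of its own bin for 18 of the 30. The 7 measured genes that carry, cut or hold SREBPs had a median of 0.01 and none at that p. Named here for their roles, they include SCAP, the escort of SREBPs, at 0.09, the proteases MBTPS1 and MBTPS2 at −0.08 and −0.24, and INSIG2, the relative of INSIG1, at 0.18. ERLIN1, which helps hold SREBPs in the endoplasmic reticulum and is named after its value was seen, had the largest difference of the 7, at −0.45, and an unadjusted p under 0.05 in 6 of 14 alternatives. Among genes of sterol storage and export, ABCA1, which exports cholesterol from cells, read 3.71, 3.70 and 3.76 in the controls and 3.29, 3.21 and 3.32 in the knockdown-labelled arrays, with a difference of −0.45 ± 0.15 (SE; limma adjusted p = 0.312). NPC2, which carries cholesterol inside lysosomes, was at −0.57 and SOAT1, which esterifies it for storage, at −0.56. Beside the sterol branch, TMEM97, the sigma-2 receptor, was at −0.48 and LBR, a sterol reductase of the nuclear envelope, at −0.44. Beside the fatty acid branch, ACSL1, which activates fatty acids, was at −0.46, ME1, which supplies NADPH, at −0.45 and ELOVL1, an elongase of very long chains, at −0.50. Without knockdown-labelled replicate 1, 3 of these 8 kept an unadjusted p under 0.05, ABCA1, NPC2 and TMEM97, and 1 listed gene, THRSP, named after its value was seen, was higher at that p. Without control replicate 1, 3 of the 30 were lower (3.34% of all genes): NPC2 and ABCA1 of these 8, and MLXIPL, also named after its value was seen. Without knockdown-labelled replicate 2 it was 5 of the 30 (8.05% of all genes).

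Leaving out arrays changed how many members stood out. Without knockdown-labelled replicate 1, 3 members were lower at an unadjusted p under 0.05, IDI1, CYP51A1 and INSIG1 (5.33% of all genes were lower), and the same 3 were left without control replicate 1 (3.34% of all genes). Without knockdown-labelled replicate 3 there were 9 lower and 1 higher, MVK (10.9% and 4.98% of all genes), and without control replicate 2 there were 9 lower (10.5%). Of the fatty acid genes 0 were lower without knockdown-labelled replicate 1, control replicate 1 or control replicate 3, and 3 without control replicate 2. Sterol genes numbered 2 lower without each of the same 3 arrays and 5 without knockdown-labelled replicate 3. IDI1, CYP51A1 and INSIG1 were at an unadjusted p under 0.05 in all 14 alternatives that kept 1 value a gene. After quantile normalization 23 of 29 members were below 0, with a median of −0.18, and after cyclic loess 23 of 29, with −0.16. The difference changed in size by over 1.5 times or in sign for 15 of the 29 after quantile normalization, 16 after cyclic loess, 14 without knockdown-labelled replicate 1 and 10 without control replicate 1.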

How the data were processed

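Expression was measured on 6 Affymetrix arrays, 3 per group, with groups and replicate numbers taken from the sample titles. The values are the log2 signals the authors deposited, summarised with RMA per the submitters' processing notes; the version is not given in the sources used here, and the log2 scale was read from the values. In its common form RMA removes background, normalizes arrays to each other and shrinks the differences of dim probe sets. Here the arrays did not share 1 distribution of signals. Over 33297 probe sets, array medians ran from 3.38 (control replicate 1) to 3.53 (knockdown-labelled replicate 1). The SDs were 1.86, 1.77 and 1.79 in control replicates 1, 2 and 3. In knockdown-labelled replicates 1, 2 and 3 the SDs were 1.60, 1.74 and 1.71. Which normalization between arrays these values received was not tested. Probe sets were named through the platform annotation, which can be old: 19460 had 1 gene, 1754 several and 12083 none. This gave 18417 genes, and where a gene had several probe sets the brightest on average was kept.

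All genes were fitted together in limma 3.58.1 (lmFit and eBayes, R 4.3.3) without covariates, 2-sided, with p-values adjusted (Benjamini-Hochberg) across the whole table and called at 0.05. The procedure was tested on simulated data with independent noise for each gene and planted differences larger than those of the members. No shift with signal was simulated, so this test does not show how the procedure performs on these arrays. Precision is limited by having 3 arrays a group. The members, their branches, the other pathway list, the markers and the alternatives were chosen with earlier results of these data known. All members are named; every array is given for those with an unadjusted p under 0.05 or a difference of at least 0.5, and up to 8 other pathway genes are named by p; SCAP, MBTPS1, MBTPS2, INSIG2, ERLIN1, THRSP and MLXIPL fall outside this rule. The labels do not say that replicate numbers pair the samples, so the numbers were not treated as pairs. Deviations from the group means correlated over genes at −0.31, −0.02 and 0.07 for same-numbered arrays and at −0.39 to 0.37 for the others. These values cannot decide on pairing, since the deviations of the 3 arrays of a group are tied to each other. Figures were drawn with matplotlib 3.10.9.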

Additional observations from a re-analysis of the deposited data

How the results depend on the processing

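No member passed an adjusted p of 0.05 under any alternative run, and of the single-gene comparisons 402 kept their direction and their side of the threshold while 13 reversed. 21 of the 29 members kept their sign throughout. With the replicate block, 2 fatty acid genes were lower at an unadjusted p under 0.05, as were 6.97% of all genes. In that setting 3 genes of the whole table were lower and 0 higher past the adjusted threshold. With dim genes left out, the regulators had a median of −0.51, and 14 genes of the table were lower and 2 higher. STARD4 was among the genes left out, and the differences of SREBF1, SREBF2 and INSIG1 were unchanged. After quantile normalization and after cyclic loess alike, 1 sterol gene, MVD, was higher, the sterol median was −0.12, the fatty acid median −0.18 and −0.17, 0 fatty acid genes were lower, and 0 genes of the table passed in limma in either direction (5.58% and 5.23% were lower at an unadjusted p under 0.05). Reversed were TM7SF2 (0.071 and 0.10), ACLY (0.055 and 0.10) and FASN (0.041 and 0.083). Subtracting array medians left 0 genes of the table higher, averaging probe sets 3 lower and 0 higher, and testing every probe set 0 higher. With an intensity trend and robust variance 0 fatty acid genes were lower at an unadjusted p under 0.05, where 7.55% of all genes were. With array weights 5 sterol genes, 4 fatty acid genes and 1 regulator were lower at an unadjusted p under 0.05, as were 12% of all genes, the regulators' median was −0.18, 155 genes of the table were lower and 36 higher past the adjusted threshold, and SC5D (0.010) and FASN (0.031) reversed.

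Leaving out each array in turn gave 0 to 8 genes of the table lower and 0 to 1 higher past the adjusted threshold. At an unadjusted p under 0.05, 2 to 5 sterol genes were lower and 0 to 1 higher. By that rule 0 to 3 fatty acid genes and 1 to 2 regulators were lower, and 3 to 11 other pathway genes with 0 to 1 higher. Of all genes, 3.34% to 10.9% were lower and 1.78% to 4.98% higher at that p. Medians ran from −0.28 to −0.13 for sterol genes, −0.38 to −0.22 for fatty acid genes, −0.41 to −0.26 for regulators and −0.31 to −0.18 for other pathway genes. Among single genes, EBP ran from −0.23 to 0.059 (reversed without control replicate 1), FDPS from −0.14 to 0.0082 (without control replicate 3), MVK from −0.12 to 0.51 and FASN from −0.19 to 0.045 (both without knockdown-labelled replicate 1), and LSS from −0.29 to 0.10 (without knockdown-labelled replicate 3). The causes were not tested. Whether replicate numbers pair the arrays could not be decided, so the replicate block is given only as an alternative. With 50 bases after the start added, the share of members with TCACNCCA stayed at 11.1%. Differences of dim genes such as MVK, SC5D, ACAT2 and STARD4 are limited by their low signal.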
